A study of Mus musculus with 7 samples.

Results

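The genes described here are 10 transcripts of the ATF4 amino acid stress response: Atf4, Ddit3, Trib3, Asns, Chac1, Psat1, Phgdh, Shmt2, Sesn2 and Slc7a11. They were chosen by symbol, matched to Ensembl gene IDs through GENCODE M21, and all 10 were found among the 49315 genes of the count table. All 10 also passed the filter on low counts that left 17920 genes for testing. RNA was sequenced after poly(A) selection from bone marrow of mice kept on chow and subjected to hindlimb ischemia, a surgical block of blood flow to the leg. The 3 control libraries carried the genotype miR-181a2b2flox/flox (flox), that is, floxed but by the label not deleted alleles of a microRNA cluster on chromosome 2, and the 4 knockout libraries were miR-181a2b2-/- (KO). The labels give no strain, age, Cre driver or number of animals per library, so a p-value here reflects the spread among libraries only, and that spread may be technical. The sample titles call the control libraries WT, while their genotype label is flox/flox. The source label says bone marrow while the extraction protocol names white adipose tissue. Erythroid, neutrophil, monocyte, megakaryocyte and B lineage marker genes were all detected in every library. So were intestinal epithelial markers, at 30.5 to 75.3 CPM summed, so detection alone does not settle the tissue. Adipocyte markers were not looked at.

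ATF4 is the effector of the integrated stress response. Kinases that sense missing amino acids, misfolded protein in the endoplasmic reticulum, haem shortage or viral RNA phosphorylate the translation factor eIF2, which lowers general protein synthesis but raises translation of the Atf4 message. ATF4 then switches on genes for amino acid synthesis and uptake, for glutathione balance and, when stress persists, for cell death. Because ATF4 is set largely at translation, the level of its mRNA is only 1 layer of its control. In marrow, blood cell precursors divide fast and make much protein, which places a steady demand on serine, glycine and asparagine.

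The sequences of the deleted microRNAs are shown because their seed (bases 2 to 8, in capitals) is the part that pairs with target messages. Both mature forms share it. They are from RefSeq on GRCm38.p6, plus strand, at chr2:38852741-38852763 for miR-181a-5p and chr2:38853845-38853868 for miR-181b-5p.
mmu-miR-181a-5p: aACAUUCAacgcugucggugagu
mmu-miR-181b-5p: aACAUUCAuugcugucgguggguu
The same mature sequences are also made from a further locus elsewhere in the genome. The hairpin genes of the deleted cluster, Mir181a-2 and Mir181b-2, had 0 counts in all 7 libraries, so these poly(A)-selected counts do not check the genotype labels. The letters TGAATGT, which pair with the whole seed, were looked for on the sense strand of every tested gene's longest 3′ UTR in GENCODE M21. They stood in 2542 of 14275 such genes (17.8%) and in 1 of the 10 described here, Slc7a11. Its match lies at base 3462 of a 3′ UTR of 7364 bases (chr3:50368834-50368840, GRCm38, minus strand) and is followed by an A, the form called an 8mer.
Slc7a11 3′ UTR: tgcttgtctctTGAATGTaaatgaacacc
The other 9 genes have 3′ UTRs of 81 bases (Atf4) to 1684 bases (Sesn2) and do not hold these 7 letters. A match is a description of the letters, not a site shown to act.

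ATF4 binds with C/EBP partners to a composite element read here as TGATGNAA, where N is any base. The stretches below show where these letters, in capitals, lie before the RefSeq start of each gene; a match written TTGCATCA is the same element on the other strand.
Asns: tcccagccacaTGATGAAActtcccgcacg
Chac1: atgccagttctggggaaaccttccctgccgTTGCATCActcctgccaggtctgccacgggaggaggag
Slc7a11: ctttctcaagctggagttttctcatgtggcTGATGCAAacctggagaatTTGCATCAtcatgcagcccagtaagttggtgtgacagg
They come from GRCm38.p6 at chr6:7693214-7693243 (minus strand), chr2:119351019-119351086 (plus strand) and chr3:50443623-50443709 (minus strand). The match in Asns, the asparagine synthetase gene, starts 23 bases before the RefSeq start, a stretch that GENCODE M21 places inside the gene. In Chac1 it starts 193 bases before the start, and Slc7a11 holds 2 matches in opposite orientation, 66 and 47 bases before the start. Trib3 has a match 14 bases after its start. In all, 4 of the 10 genes (4 of their 11 windows, 36.4%) hold the element in the 300 bases around a start, against 1304 of 32851 windows over all genes (3.97%). The 10 genes were chosen as members of the ATF4 response, so their higher share is no independent support for that membership. The promoters were not assayed, so these letters say nothing of binding in this marrow.

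Levels are given as CPM, read counts scaled to a common library size after TMM, an edgeR scaling that sets most genes level between libraries. None of the 10 genes passed the test of KO against flox, an edgeR quasi-likelihood test with Benjamini-Hochberg adjustment over all 17920 genes at 0.05. The same test called 26 genes in all (0.145%). At an unadjusted edgeR p under 0.05 stood 1 of the 10, Asns, which was lower in KO, against 14.1% of all tested genes (8.17% lower and 5.89% higher in KO). DESeq2 called 1 of the 10, also Asns, against 2.24% of the 17729 genes it gave an adjusted p (0.829% lower in KO). The groups did not overlap in 1 of the 10, again Asns, against 13.6% of all tested genes. Fold changes (log2, KO minus flox) were below 0 for 8 of the 10 and above 0 for Atf4 and Ddit3, where 51.9% of all tested genes were below 0. Their median was -0.10, against -0.008 over all tested genes. The 95% intervals of 9 of the 10 included 0.

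**Figure D1:**
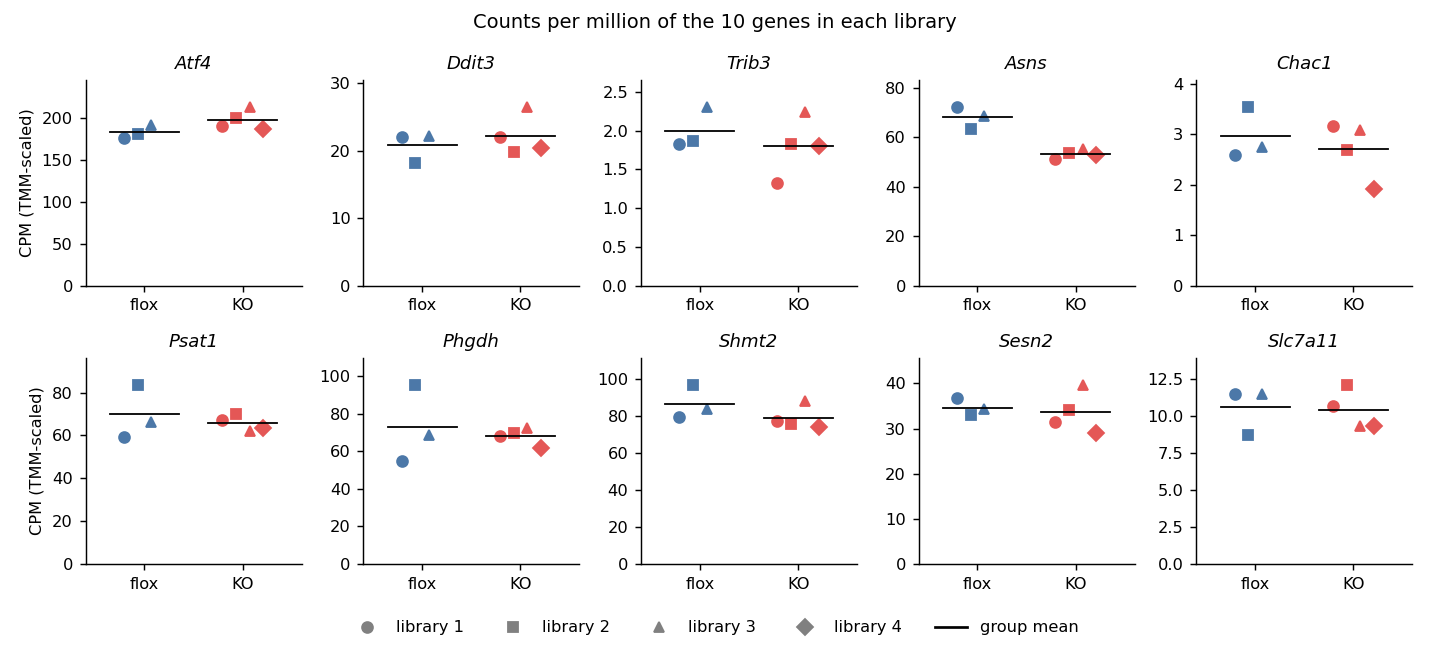
CPM on TMM-scaled library sizes (y axis, from 0) for each of the 10 genes in the 3 flox and 4 KO libraries, with a symbol per library number and a line at each group mean. Asns has KO libraries between 51.3 and 55.3, all below the flox libraries, while the groups overlap in the other 9 genes; numbers shared between groups do not mark shared animals.

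Levels differed widely among the 10. Per kilobase of annotated exon, the mean level in CPM over the 7 libraries was 81.2 for Atf4, the highest. Phgdh (28.2), Shmt2 (26.4), Asns (21.8), Psat1 (15.8), Ddit3 (12.6) and Sesn2 (9.80) followed, and the ranges of neighbours in that order overlapped. Chac1 (1.72), Trib3 (0.888) and Slc7a11 (0.751) were lowest, with Chac1 above Trib3 in range and Trib3 overlapping Slc7a11. The exon length of Slc7a11 in GENCODE is 13922 bases, most of it outside the coding part, which lowers its value per kilobase. Trib3 rested on 63 to 108 reads per library and Chac1 on 84 to 173, against 8201 to 9998 for Atf4.

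Among the transcription factors and their feedback, Atf4 itself (chromosome 15, 80255184 to 80257541, GRCm38) was measured most precisely. It stood at 177, 181 and 192 CPM in flox and at 190.0, 200.1, 214 and 187 CPM in KO. The highest library was KO 3 and the lowest flox 1, and the groups overlapped, with means of 183 ± 7.69 CPM (SD, n = 3) and 198 ± 12.2 CPM (SD, n = 4). KO minus flox came to 0.11 on the log2 scale (SE 0.07), with a 95% interval of -0.05 to 0.27, so a KO level more than 1.21-fold that of flox lies outside it. The edgeR adjusted p was 0.55.

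Ddit3, which encodes CHOP, the factor that turns prolonged stress towards cell death (chromosome 10, 127290774 to 127296288, plus strand), stood at 22.0, 18.1 and 22.2 CPM in flox and 22.0, 19.8, 26.5 and 20.4 CPM in KO. Only KO 3 lay above every flox library. Its log2 fold change was 0.09 (95% interval -0.18 to 0.36, edgeR adjusted p = 0.799). Exons of Ddit3 share 68 bases with Mars, a tRNA synthetase gene on the opposite strand with 3685 to 4577 reads per library, and 13 with Gm4189. Whether counting used strand was not found in the labels or the file, so reads in those bases cannot be told apart. GENCODE M21 also lists a second gene model under the name Ddit3 (105 shared bases), which was not analysed here.

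Trib3 encodes a pseudokinase induced by ATF4 and CHOP that feeds back on both (chromosome 2, 152337422 to 152344032, minus strand). It stood at 1.83, 1.86 and 2.31 CPM in flox and 1.33, 1.83, 2.24 and 1.80 CPM in KO. KO 1 was the lowest library, and the others ran together from 1.80 to 2.31. In log2 terms KO minus flox was -0.15 (95% interval -0.63 to 0.32, edgeR adjusted p = 0.817).

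Asns converts aspartate to asparagine and is a classic amino acid response gene (chromosome 6, 7675169 to 7693254, GRCm38, minus strand). It stood at 72.4, 63.3 and 68.8 CPM in flox and 51.3, 53.6, 55.3 and 53.0 CPM in KO. All 4 KO libraries lay below all 3 flox libraries, which holds in that direction for 7.41% of tested genes, and the KO libraries lay close together (coefficient of variation 3.09%, against 6.70% in flox). The group means were 68.2 ± 4.57 CPM (SD, n = 3) and 53.3 ± 1.64 CPM (SD, n = 4), so KO stood at 78.1% of flox. As a log2 fold change this was -0.36, with SE 0.07 and a 95% interval of -0.51 to -0.20. The unadjusted edgeR quasi-likelihood p was 0.000482, the 77th lowest of all tested genes and the 11th lowest of those lower in KO, and the adjusted p of 0.111 missed the threshold. DESeq2 gave -0.34 with an adjusted p of 0.00317. The other alternative fits gave edgeR or limma-voom adjusted p from 0.0606 without a filter on low counts to 0.264 with the replicate number as a block. With 3 against 4 libraries, the exact permutation test (two-sided) gave p = 0.0286, the smallest it can give, for a gene singled out after its values were seen. Leaving out each library in turn moved the log2 fold change only between -0.39 and -0.32.

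Of the cell type marker sums, those of stroma and bone, B lineage, T and NK cells and intestinal epithelium did not overlap between groups. Only the stroma and bone sum was lower in KO, as Asns was, and the others were higher. Among all tested genes, 13.6% did not overlap between groups. Markers of marrow stroma and bone (7 genes) summed to 501 to 895 CPM in flox and 309 to 479 CPM in KO. Taken singly, Cxcl12, the largest part of that sum, overlapped between groups (285 to 679 CPM in flox, 200 to 315 CPM in KO). Lepr, Col1a1 and Bglap also overlapped, while Col1a2, Sparc and Sp7 did not. B lineage markers (10 genes) summed to 77.2 to 771 CPM in flox and 818 to 1042 CPM in KO, T and NK cell markers (6 genes) to 58.2 to 62.3 and 70.1 to 78.1 CPM, and intestinal epithelial markers (7 genes) to 30.5 to 31.4 and 68.5 to 75.3 CPM. None of these markers was at 0 in any library, and their part in the Asns values was not tested. Of the T and NK cell markers, Cd3e, Cd3g and Ncr1 overlapped between groups, while Lck, Klrb1c and Il2rb did not. All other marker sums overlapped. Primary granule markers of neutrophils summed to 3609 to 6372 CPM in flox and 2615 to 3662 CPM in KO, where only KO 2 reached the flox range. Each had a log2 fold change below 0 and none passed the edgeR test. Prtn3 and Prss57 did not overlap between groups, while Mpo, Elane, Ctsg and Ms4a3 did. Secondary granule markers summed to 19243 to 27127 CPM in flox and 15128 to 19390 CPM in KO. Of them, Ltf, Camp and Fcnb did not overlap, while Ngp, Lcn2 and Cebpe did. Megakaryocyte and platelet markers summed to 396 to 711 CPM and 310 to 428 CPM. Markers of proliferating cells stood at 4293 to 5583 CPM in flox and 4439 to 5443 CPM in KO. In bulk marrow, fewer cells of a type and less RNA per cell cannot be told apart.

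**Figure D2:**
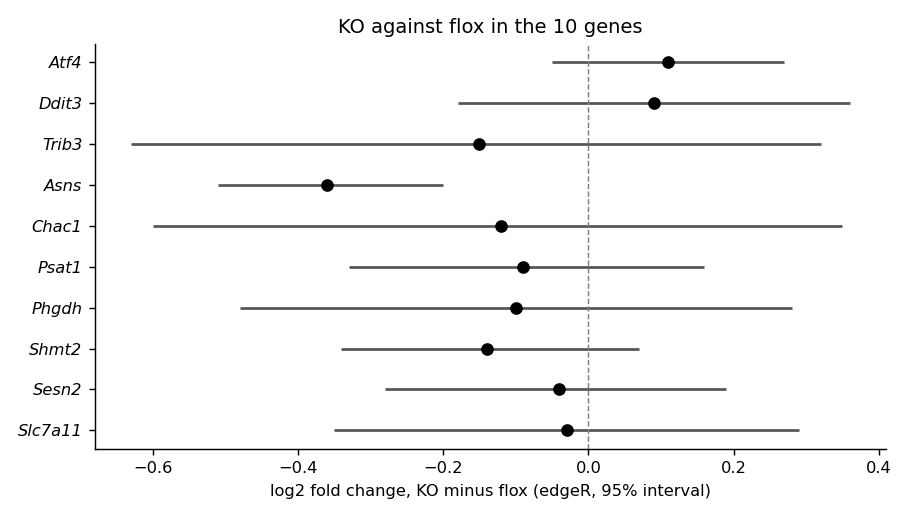
Log2 fold change of KO minus flox (x axis) for each of the 10 genes (y axis), with points for the edgeR estimate and lines for its 95% interval. The interval of Asns runs from -0.51 to -0.20, and those of the other 9 genes include 0.

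Among the serine and one-carbon enzymes, the widest spread lay within the flox group. Phgdh, which opens serine synthesis from glycolysis (chromosome 3, 98313170 to 98339990, minus strand), stood at 54.6, 95.4 and 68.8 CPM in flox and 68.2, 69.7, 72.3 and 61.6 CPM in KO. The KO libraries all lay inside the flox range, which spanned 1.75-fold from flox 1 to flox 2. Its coefficient of variation was 28.4% in flox and 6.72% in KO. The log2 fold change of -0.10 (95% interval -0.48 to 0.28, edgeR adjusted p = 0.848) became 0.15 without flox 2 and -0.28 without flox 1.

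Psat1, the aminotransferase that follows Phgdh (chromosome 19, 15904678 to 15947337, minus strand), stood at 59.3, 83.6 and 66.4 CPM in flox and 67.4, 69.8, 62.1 and 63.3 CPM in KO. Flox 2 was again highest and flox 1 lowest, with KO between them. KO minus flox was -0.09 on the log2 scale (95% interval -0.33 to 0.16, edgeR adjusted p = 0.792), and 0.08 without flox 2.

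Shmt2, the mitochondrial enzyme that turns serine into glycine and a folate-bound carbon unit (chromosome 10, 127517123 to 127522444, minus strand), stood at 79.2, 96.7 and 83.9 CPM in flox and 77.3, 75.4, 88.2 and 74.1 CPM in KO. Of the KO libraries, 3 lay below every flox library and KO 3 lay above flox 1 and flox 3. Its log2 fold change was -0.14 (95% interval -0.34 to 0.07, edgeR adjusted p = 0.553), and -0.03 without flox 2. An overlap of 32 exon bases with Ndufa4l2 on the opposite strand involves a gene with 2 to 6 reads per library.

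Flox 2 was the highest of the 7 libraries for 6 of the 12 other tested serine, proline and one-carbon genes, against 22.0% of all tested genes. Psph, which finishes serine synthesis, stood at 12.5 CPM in flox 2 and 8.83 to 10.7 CPM elsewhere. Shmt1, the cytosolic partner of Shmt2, stood at 24.8 CPM in flox 2 and 16.5 to 19.2 CPM elsewhere, and Mthfd2, a mitochondrial folate enzyme, at 50.4 and 38.8 to 46.7 CPM. Other folate enzymes did not peak there. Mthfd1, the cytosolic one, stood at 101 CPM in flox 2, the second lowest library, and was highest in flox 1 at 135 CPM, while Mthfd1l stood at 81.9 CPM in flox 2 and was highest in KO 3 at 87.5 CPM. Markers of the neutrophil primary granule, made at the promyelocyte stage (6 genes), summed to 6372 CPM in flox 2 and to 2615 to 4145 CPM in the other 6 libraries. Secondary granule markers (6 genes) were also highest in flox 2, at 27127 CPM against 15128 to 21113 CPM, and the summed erythroid markers (8 genes) were lowest there, at 29027 CPM against 39954 to 60555 CPM. None of these markers was at 0 in any library, and the part of these cell types in the enzyme levels was not tested.

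**Figure D3:**
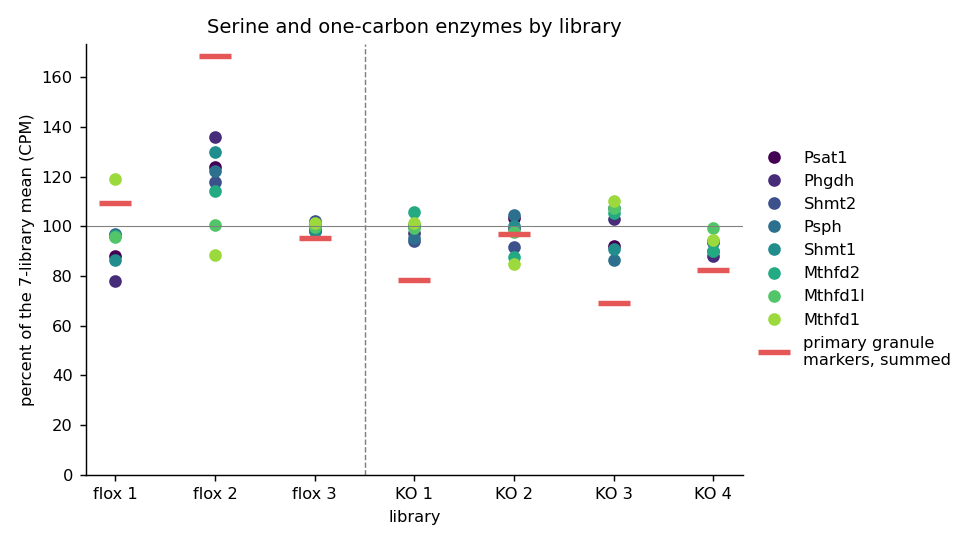
Level in each library as a percentage of that gene's mean over the 7 libraries (y axis, CPM) for 8 serine and one-carbon enzymes (dots) and for 6 neutrophil primary granule markers summed (red bars). Psat1, Phgdh, Shmt2, Psph, Shmt1, Mthfd2 and the marker sum are highest in flox 2, while Mthfd1 is highest in flox 1 and Mthfd1l in KO 3.

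Chac1 and Slc7a11 act on cysteine and glutathione. Chac1, which degrades glutathione (chromosome 2, 119351229 to 119354381, plus strand), stood at 2.59, 3.55 and 2.74 CPM in flox and 3.16, 2.69, 3.08 and 1.91 CPM in KO. Flox 2 was highest and KO 4 lowest. Its fold change (log2) was -0.12 (95% interval -0.60 to 0.35, edgeR adjusted p = 0.855). It turned to 0.04 without flox 2 and 0.01 without KO 4. Slc7a11, the light chain of the antiporter that brings in cystine and the one gene of the 10 with a miR-181 seed match (chromosome 3, 49892526 to 50443614, minus strand), stood at 11.5, 8.69 and 11.5 CPM in flox and 10.7, 12.1, 9.32 and 9.35 CPM in KO. Flox 2 was lowest and KO 2 highest, and the log2 fold change was -0.03 (95% interval -0.35 to 0.29, edgeR adjusted p = 0.961). A KO level over 1.23-fold that of flox lies outside this interval.

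Sesn2, a leucine sensor that restrains the growth kinase complex mTORC1 (chromosome 4, 132492032 to 132510501, minus strand), stood at 36.7, 32.9 and 34.4 CPM in flox and 31.5, 34.1, 39.7 and 29.1 CPM in KO. KO held both the highest library (KO 3) and the lowest (KO 4). The log2 fold change was -0.04 (95% interval -0.28 to 0.19, edgeR adjusted p = 0.905).

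The 10 genes did not vary as a block across libraries. As a description over 7 libraries that share a group structure, the 45 pairs had a median Pearson r of 0.12 on log2 CPM, and 1 pair exceeded 0.8, Phgdh with Psat1 at 0.91. KO 3 was the highest library for Atf4, Ddit3 and Sesn2, and flox 2 for Chac1, Psat1, Phgdh and Shmt2. The erythroid marker sum was also highest in KO 3, at 60555 CPM against 29027 to 49090 CPM in the other 6 libraries, and its part in those 3 genes was not tested. Against 11329 protein-coding genes (mean log2 CPM 1 or more), the pattern most like that of Psat1 was that of Shmt1 (r = 0.992), followed by Sh2b1 and Dcun1d5 (both 0.990). For Asns the nearest was Hnrnpul2 (0.972), and for Atf4 the nearest were Sap30bp (0.981), Tpt1 (0.967) and Eif3f (0.966). The pattern nearest to Ddit3 was that of Chtf18 (0.973), to Trib3 that of Tmem161a (0.987), to Chac1 that of Gadd45b (0.981) and to Phgdh that of Tmub1 (0.983). For Shmt2 it was Cdc37 (0.991), for Sesn2 Pitpnm1 (0.969) and for Slc7a11 Thap1 (0.932). Each of the 10 thus had a nearest gene at 0.932 or more among 11329 genes over 7 libraries. Such values alone do not show shared regulation. Psat1, Phgdh and Shmt1 were each highest in flox 2.

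**Figure D4:**
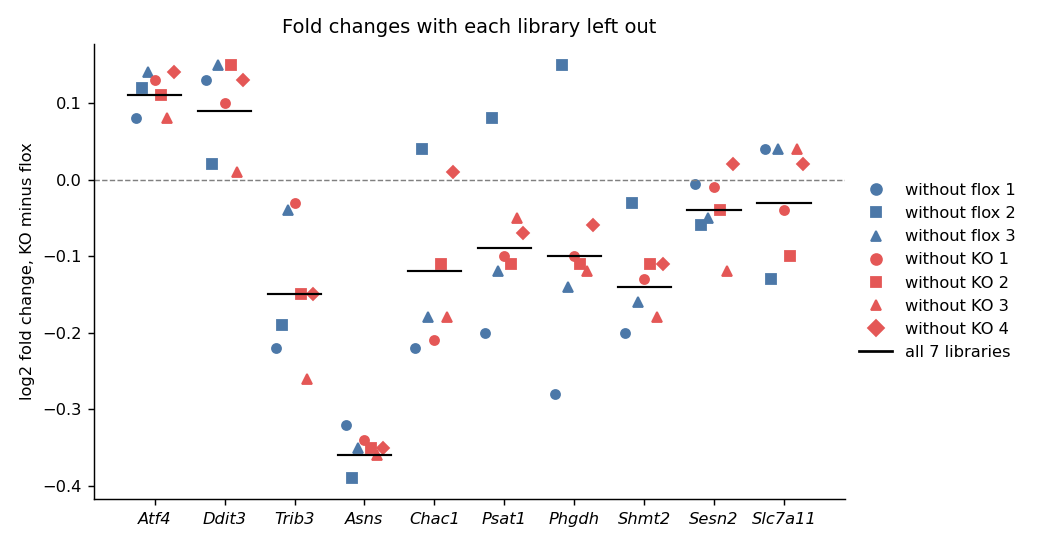
Log2 fold change of KO minus flox (y axis) for each gene (x axis) with all 7 libraries (black line) and with each library left out in turn (symbols). Asns stays between -0.39 and -0.32, while Phgdh runs from -0.28 without flox 1 to 0.15 without flox 2.

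Around these genes, 105 further genes of the pathway were taken in 8 lists, of which 102 were tested and 0 passed by edgeR or by DESeq2. By unadjusted edgeR p, 11 of them were under 0.05, 6 higher and 5 lower in KO, where 14.1% of all tested genes were under 0.05 (5.89% higher and 8.17% lower). The median log2 fold change over the 102 was -0.02. The lists differed little in their medians, from -0.17 for outputs of CHOP to 0.06 for sestrins and nutrient sensing.

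Upstream, of 14 genes for eIF2 kinases, their regulators and eIF2B, 9 had a fold change above 0 and 5 below. Eif2ak3, the kinase PERK of the endoplasmic reticulum, stood at 53.2, 57.5 and 62.4 CPM in flox and 62.9, 69.1, 65.9 and 65.7 CPM in KO. All KO libraries lay above all flox libraries, as in 6.22% of tested genes, though KO 1 and flox 3 nearly met. The log2 fold change was 0.19 (95% interval 0.03 to 0.36, edgeR adjusted p = 0.30). Eif2ak4, the kinase GCN2 that senses uncharged tRNA, gave 0.17 (edgeR adjusted p = 0.409) with overlapping groups.

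Partners and feedback regulators of ATF4 (12 tested, 6 above and 6 below 0) had their lowest p in Trib1 and Trib2, relatives of Trib3. Trib2 stood at 11.7, 18.5 and 30.2 CPM in flox and 28.6 to 34.5 CPM in KO (log2 fold change 0.65, edgeR adjusted p = 0.367). Flox 1, the library with the lowest B lineage marker sum (77.2 CPM, against 484 CPM or more in the other 6), was also the lowest for Trib2, and their relation was not tested. Trib1 gave 0.20 (edgeR adjusted p = 0.346).

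Among the amino acid transporters (11 tested, 7 above and 4 below 0), 3 had an unadjusted edgeR p under 0.05, all with a fold change above 0, against 5.89% of all tested genes under 0.05 and higher in KO. Slc38a2, a sodium-coupled neutral amino acid carrier, gave 0.21 (95% interval 0.04 to 0.38, edgeR adjusted p = 0.274), and Slc1a5, a glutamine carrier, gave 0.29 (edgeR adjusted p = 0.32). The groups overlapped in both. KO lay wholly above flox in 1 of the 11 tested transporters, against 6.22% of all tested genes. Slc7a3, with 1 to 8 reads per library, was not tested.

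Among the other synthesis and one-carbon enzymes, 12 of 14 were tested, with 9 below 0 and a median of -0.08. Pycr1, a mitochondrial proline synthesis enzyme, stood at 3.23, 4.32 and 3.89 CPM in flox and 2.74, 2.90, 2.76 and 3.19 CPM in KO. Its groups did not overlap, KO being lower, which held for 1 of the 12 against 7.41% of all tested genes. The log2 fold change of Pycr1 was -0.40 (95% interval -0.75 to -0.04, edgeR adjusted p = 0.315). Cth, which makes cysteine from cystathionine, was near the floor at 0.150 to 0.428 CPM (log2 fold change 0.66, edgeR adjusted p = 0.45).

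The cytosolic aminoacyl-tRNA synthetases, which charge tRNAs and include many ATF4 targets, had small fold changes: 18 of 20 were below 0, with a median of -0.07, against 51.9% below 0 and a median of -0.008 over all tested genes. KO lay wholly below flox in 5 of the 20 (Dars, Eprs, Gars, Lars and Nars, named after their values were seen), against 7.41% of all tested genes. Dars gave -0.24 (95% interval -0.42 to -0.06, edgeR adjusted p = 0.261) and Gars, at 116 to 123 CPM in flox and 103 to 111 CPM in KO, gave -0.16 (edgeR adjusted p = 0.308). These genes were not replicates of each other, and the list was not tested as a whole.

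Of 11 glutathione and NRF2 target genes, 7 were above and 4 below 0. Gsr, glutathione reductase, gave -0.28 (95% interval -0.52 to -0.05, edgeR adjusted p = 0.286), and Gclc, which starts glutathione synthesis, gave 0.22 (edgeR adjusted p = 0.554). Sestrin and GATOR genes had 9 of 12 above 0. Sesn3, a relative of Sesn2, stood at 17.0, 25.0 and 27.8 CPM in flox and 39.9, 29.9, 33.0 and 33.2 CPM in KO, with KO wholly higher (log2 fold change 0.55, 95% interval 0.17 to 0.92, edgeR adjusted p = 0.235). Flox 1 was the lowest library here as well. Mios, a GATOR subunit gene, was also higher in every KO library (25.6 to 28.6 CPM) than in flox (24.0 to 24.9 CPM), and gave 0.16 (edgeR adjusted p = 0.395). KO lay wholly above flox in these 2 of the 12 genes, against 6.22% of all tested genes.

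Outputs of CHOP and of endoplasmic reticulum stress (11 tested, 7 below and 4 above 0) had Ero1l, an oxidase for disulfide bonds, at -0.43 (95% interval -0.75 to -0.10, edgeR adjusted p = 0.262) and Bcl2l11, which encodes the death factor BIM, at 0.18 (edgeR adjusted p = 0.362). Ero1l stood at 99.1, 114 and 78.8 CPM in flox and 83.7, 74.8, 59.1 and 71.5 CPM in KO, and its groups overlapped. Those of Bcl2l11 did not, at 29.6 to 36.7 CPM in flox and 37.3 to 38.1 CPM in KO. KO lay wholly above flox in this 1 of the 11 genes, against 6.22% of all tested genes.

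**Figure D5:**
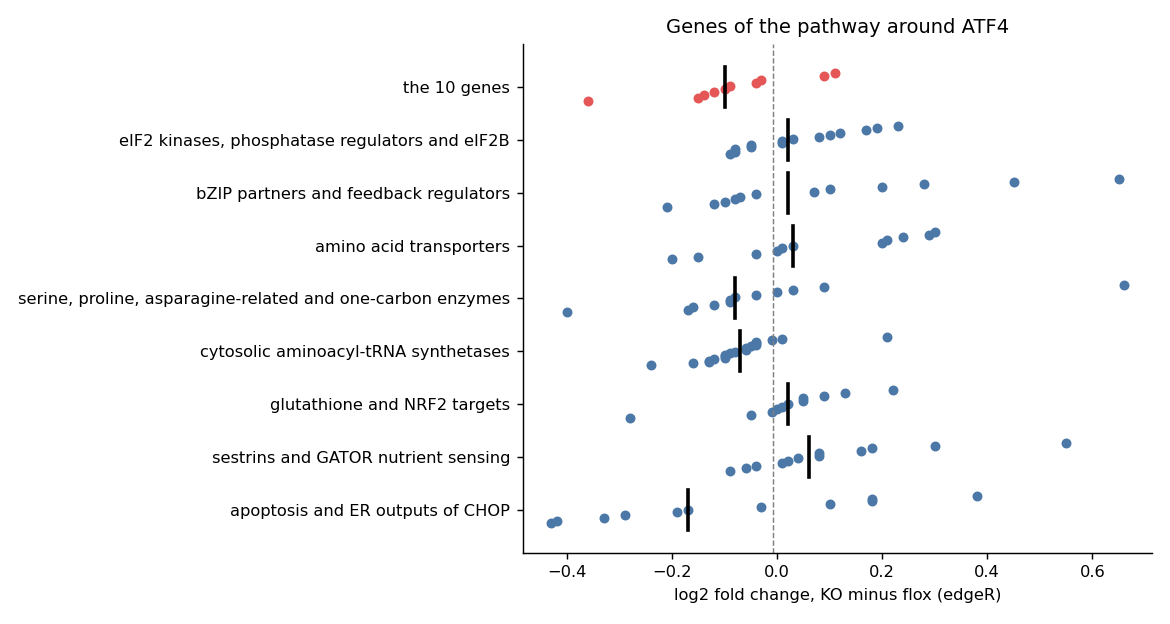
Log2 fold change of KO minus flox (x axis) for the 10 genes (red) and for the tested genes of 8 pathway lists (blue, y axis), with a black bar at each list's median and a dashed line at the median of all tested genes. List medians lie between -0.17 and 0.06, and no point shown passed the edgeR test.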

How the data were processed

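Raw read counts per Ensembl gene were deposited by the authors in 1 table with a column for each of the 7 libraries. The submitters' processing notes name Trimmomatic 0.36, STAR 2.5.2b, featureCounts (Subread 1.5.2) and the build GRCm38. Which annotation release was counted, whether strand was used, and how multi-mapped reads were handled is not given there. Columns were matched to samples by library code, with 0 columns unmapped. Total counts ran from 43110251 to 51688514, and chi-square per degree of freedom between libraries of a group from 19 to 90.6, so none was treated as a repeat deposit of another. Of the gene IDs, 49056 matched GENCODE M21 and 259 did not; Gcn1 was found under an older symbol.

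Counts were filtered with filterByExpr (minimum count 10), scaled with TMM and fitted with robust glmQLFit in edgeR 4.0.16 (R 4.3.3); glmQLFTest was two-sided, with Benjamini-Hochberg adjustment at 0.05. Standard errors are those implied by the F statistic. Log2 CPM used a prior count of 2. Alternatives were other scalings, filters and dispersion, limma 3.58.1 (voom), DESeq2 1.42.0 (all genes with at least 1 count), removal of haemoglobin and mitochondrial genes, a replicate block, and each library left out. The edgeR script was tested on simulated data. The genes and lists were chosen with earlier results of these data known. The rule for names beside the 10 genes was the 2 of each pathway list with the lowest p and the 3 genes most correlated with each of the 10 over the 7 libraries; for 8 of the 10 only the nearest is reported here. Further serine and folate enzymes, untested genes and synthetases were named after their values were seen.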

Additional observations from a re-analysis of the deposited data

How the results depend on the processing

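The count of 26 genes called over the table was 398 by DESeq2 and 13 by limma-voom. It was 112 without a filter on low counts, 16 with non-robust dispersion, and 2 to 14 with each library left out. Of the 10 genes, DESeq2 called 1 (Asns), and each of the other 16 alternatives called 0. Of the 102 tested pathway genes, 0 were called under each of the 17 alternatives. Atf4, Ddit3, Trib3, Asns and Shmt2 kept the sign of their fold change in all 17. The log2 fold changes ran over the fits with a library left out from 0.08 to 0.14 for Atf4, 0.01 to 0.15 for Ddit3, -0.26 to -0.03 for Trib3, -0.20 to -0.03 for Shmt2, -0.22 to 0.04 for Chac1, -0.20 to 0.08 for Psat1, -0.28 to 0.15 for Phgdh, -0.12 to 0.02 for Sesn2 and -0.13 to 0.04 for Slc7a11. Each change of sign was in a gene that passed no fit, and the cause was not tested.

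The labels number the libraries 1 to 3 in both groups. Deviations of same-numbered libraries correlated at -0.022, 0.077 and 0.023, within a range of -0.085 to 0.077 over all pairs. Not every library correlated best with its own number. Values this small from so few libraries cannot decide whether same-numbered libraries were handled together. With the replicate number as a block and KO 4 left out, 4 genes were called, 0 of the 10, and the fold changes of Chac1 (0.02), Sesn2 (0.01) and Slc7a11 (0.02) turned positive. Trib3 and Chac1, with the fewest reads, have the widest intervals.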
